A study of Mus musculus with 19 samples.

Results

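The immunity-related GTPases are a family of interferon-induced GTP-binding proteins, and their transcripts were followed here in mouse hepatocytes by age. The 9 members, Igtp, Irgm1, Irgm2, Iigp1, Ifi47, Tgtp1, Tgtp2, Gm4951 and F830016B08Rik, were chosen by symbol among the 24537 genes of the deposited table. All 9 were found. The series holds 19 libraries of poly(A) RNA from perfusion-isolated hepatocytes. All mice were male, wild-type and of the strain C57BL/6J. Of these, 10 mice were 5 months old (young) and 9 were 24 months old (old). The mice were culled on 2 days 23 days apart, with 5 young and 5 old on the first day and 5 young and 4 old on the second. The labels name no treatment, transgene or allele for either age. Libraries are taken as separate mice because the labels number them separately.

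Interferons bind receptors that act through JAK kinases and STAT transcription factors, and interferon gamma in particular induces these GTPases. In mice the effector GTPases, such as Iigp1 (also called Irga6) and Tgtp1 (Irgb6), coat and disrupt the vacuoles in which intracellular parasites and bacteria live. The regulatory members Irgm1, Irgm2 and Igtp (Irgm3) sit on the membranes of the cell itself and keep the effectors inactive there. In liver, both hepatocytes and resident immune cells respond to interferon.

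Promoter windows of 300 bases, 250 before and 50 from the annotated start, were taken from RefSeq on GRCm38.p6, the same assembly as mm10. They were found for 6 members, not for Iigp1, Gm4951 and F830016B08Rik. The windows are shown because interferon acts on such genes through 2 kinds of element, the gamma-activated site and the interferon-stimulated response element. The letters searched on both strands were TTCNNNGAA for the first and GAAA followed after any 2 bases by another GAAA for the second. Matches are in capitals in the following windows, and the sequence between them is in lower case.
Igtp, chr11:58199306-58199605, plus strand: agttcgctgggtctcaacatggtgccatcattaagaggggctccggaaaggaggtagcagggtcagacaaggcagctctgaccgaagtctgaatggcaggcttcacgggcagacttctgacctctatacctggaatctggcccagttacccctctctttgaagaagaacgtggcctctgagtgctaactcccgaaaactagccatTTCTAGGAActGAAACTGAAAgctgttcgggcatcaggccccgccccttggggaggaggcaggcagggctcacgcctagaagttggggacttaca
Irgm2, chr11:58214727-58215026, plus strand: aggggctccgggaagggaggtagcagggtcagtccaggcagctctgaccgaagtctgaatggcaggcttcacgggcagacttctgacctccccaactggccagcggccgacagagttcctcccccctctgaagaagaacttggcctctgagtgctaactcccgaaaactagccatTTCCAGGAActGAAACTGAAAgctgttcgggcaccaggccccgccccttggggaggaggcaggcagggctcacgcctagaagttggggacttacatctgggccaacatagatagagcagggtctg
Tgtp1, chr11:48992197-48992496, minus strand: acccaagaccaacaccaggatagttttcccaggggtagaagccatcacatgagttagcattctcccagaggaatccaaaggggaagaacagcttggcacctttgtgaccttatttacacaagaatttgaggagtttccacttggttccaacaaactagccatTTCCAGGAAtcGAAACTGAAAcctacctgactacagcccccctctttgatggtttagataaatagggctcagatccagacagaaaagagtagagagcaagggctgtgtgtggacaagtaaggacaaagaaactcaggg
Tgtp2, chr11:49064163-49064462, minus strand: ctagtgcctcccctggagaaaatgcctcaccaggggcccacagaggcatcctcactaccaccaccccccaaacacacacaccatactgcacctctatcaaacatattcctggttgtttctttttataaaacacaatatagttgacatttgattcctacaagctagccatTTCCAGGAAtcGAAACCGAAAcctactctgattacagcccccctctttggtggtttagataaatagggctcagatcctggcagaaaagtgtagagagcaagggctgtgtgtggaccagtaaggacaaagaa
Irgm1, chr11:48871371-48871670, minus strand: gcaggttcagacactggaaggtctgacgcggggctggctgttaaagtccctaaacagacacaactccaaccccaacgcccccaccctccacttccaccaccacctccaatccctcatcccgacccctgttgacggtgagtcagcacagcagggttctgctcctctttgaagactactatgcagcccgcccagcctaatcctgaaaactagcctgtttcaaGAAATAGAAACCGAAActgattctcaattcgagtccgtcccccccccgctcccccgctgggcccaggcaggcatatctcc

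The response element letters were in 5 of the 6 members' windows, against 3.44% of all 32851 windows, and the gamma-activated site letters in 4 of 6, against 8.30%. Irgm1 held a pair of response element matches that overlap each other and no gamma-activated site match. In Igtp, Irgm2, Tgtp1 and Tgtp2 the same arrangement recurred, a gamma-activated site match followed after 2 bases by a response element match. The first base of the former was at -45 in Igtp, -75 in Irgm2, -88 in Tgtp1 and -81 in Tgtp2, counted from the annotated start. That arrangement, searched as a whole on both strands after it had been seen, was in 5 of the 32851 windows (0.015%). The fifth was Gm12185, another gene of the family. The windows of Igtp and Irgm2 share long stretches of sequence, as do those of Tgtp1, Tgtp2 and Gm12185, so these matches are not independent. Ifi47 held neither match, but its RefSeq window (chr11:49076337-49076636) lies upstream of the transcript model that the deposited table counted.

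The members lie in 3 clusters of the mm10 genome. Irgm1 (48865249 to 48871346), Tgtp1 (48985329 to 48992246), Tgtp2 (49057196 to 49064212) and Ifi47 (49087017 to 49096987) are on chromosome 11. Igtp (58199556 to 58207592) and Irgm2 (58214977 to 58222783) form a second pair on chromosome 11, with 7.38 kb between them. Gm4951 (60212077 to 60247820), F830016B08Rik (60293380 to 60303016) and Iigp1 (60376029 to 60392629) span 181 kb of chromosome 18.

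Tgtp1 and Tgtp2 are near-identical copies. Of the windows of 100 bases, the length of one read per the labels, in the longest GENCODE transcript of Tgtp1, 83.3% also occurred in a transcript of another gene, and 80.0% of all its windows occurred in Tgtp2. For Tgtp2 the share found in another gene was 80.4%. The division of reads between the pair is therefore uncertain, although Tgtp2 took 22.0% to 38.7% of their joint count in every library. The shares were 5.70% for Igtp, 2.50% for Irgm2, 0.80% for Ifi47, 0.10% for F830016B08Rik and 0 for Irgm1, Iigp1 and Gm4951. The gene Olfr56, at most 195 counts in a library, overlaps Ifi47 on the same strand and Tgtp2 on the opposite one.

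Libraries held 17381439 to 20287628.5 counts in genes. Old mouse 1187 stood apart on the first principal component of log2 CPM (-92.9, against -31.8 to 45.4), and young mice 1184, 1186 and 1188 on the second (-52.2 to -40.9, against -12.1 to 26.6). CPM here is a gene's count scaled to the library total after TMM adjustment (trimmed mean of M-values). Markers of other liver cells differed widely. The counts of higher and lower markers that follow stand beside 16.3% and 14.5% of all genes tested. The macrophage list summed to 157 to 735 CPM in young and 93.1 to 3792 CPM in old libraries, with 13 of its 15 genes higher in old mice, with the smallest p for Lyz2 (log2 fold change 2.48). That count was 2 without mouse 1187 and 9 to 14 when any other single mouse was left out. On the first cull day alone it was 0, when 450 of all genes passed in either direction. It was 14 on the second day alone, which does not hold mouse 1187. The endothelial list (13 of 16 higher, smallest p for Fcgr2b, 0.90) summed to 226 to 433 and 246 to 818 CPM. The stellate list (12 of 12 tested higher, smallest p for Lrat, 1.52) summed to 51.7 to 138 and 146 to 517 CPM. On the first cull day alone 0 endothelial and 5 stellate genes were called higher, and on the second day alone 10 and 11. T and NK cell markers summed to 1.10 to 3.77 and 1.98 to 57.1 CPM, B cell markers to 0.579 to 2.78 and 1.73 to 25.1 CPM, neutrophil markers to 0.110 to 5.21 and 0.883 to 15.3 CPM, and dendritic cell markers to 0.474 to 2.16 and 1.35 to 17.2 CPM. Mouse 1187 had the highest sum in each of these lists. Only 2 of 7 B cell, 1 of 7 neutrophil and 1 of 6 dendritic cell genes were tested after the filter on low counts. All of these were called higher. In the B cell list Jchain (2.14) had the smallest p. The single neutrophil and dendritic cell genes tested were Csf3r (2.10) and Clec9a (1.08). Of the 14 T and NK cell genes only Cd4 was tested after the filter on low counts, and it did not pass. Without that filter 11 T and NK cell, 6 B cell and 4 dendritic cell genes were called higher. Cholangiocyte markers summed to 5.44 to 170 and 7.94 to 63.6 CPM, with none past the threshold and Sctr at 0 in every library. Of 10 hepatocyte markers 2 were higher and 6 lower, with the smallest p for Tdo2 (-0.79), with Alb at 1097055.5 to 2968627.5 counts per library.

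Per kilobase of transcript, Iigp1 was the most abundant member in every library. Its level was 101 ± 10.8 CPM per kb over the 10 young libraries (SD) and 116 ± 24.5 over the 9 old libraries (SD). Iigp1 alone held 51.7% ± 3.00 of the summed CPM of the 9 members at 5 months (SD, n = 10) against 50.9% ± 4.16 at 24 months (SD, n = 9). Gm4951, a less studied relative of Iigp1, came next in young mice, at 48.2 ± 4.33 CPM per kb, above Irgm1 (22.1 ± 3.49) in 10 of 10 libraries. In old mice Gm4951 was at 38.3 ± 4.74 CPM per kb and above Igtp, the next in order (27.9 ± 18.3), in 7 of 9 libraries.

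Igtp, Irgm2 and Ifi47 formed a middle group in young mice, at 14.1 ± 4.16, 13.7 ± 3.22 and 13.2 ± 5.57 CPM per kb, and these neighbours did not differ beyond their spread. In old mice the middle group held Igtp, Irgm1 (25.5 ± 9.13), Irgm2 (21.0 ± 9.42) and Ifi47 (19.96 ± 10.1), again with overlapping values. F830016B08Rik, Tgtp1 and Tgtp2 were lowest. Tgtp1 was at 2.22 ± 1.05 CPM per kb in young and 7.03 ± 9.44 in old mice, and F830016B08Rik at 2.28 ± 1.47 and 1.86 ± 0.901. Tgtp1 was above F830016B08Rik in 6 of 10 young libraries, and Tgtp2 was above F830016B08Rik in 4 of 9 old libraries.

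**Figure D1:**
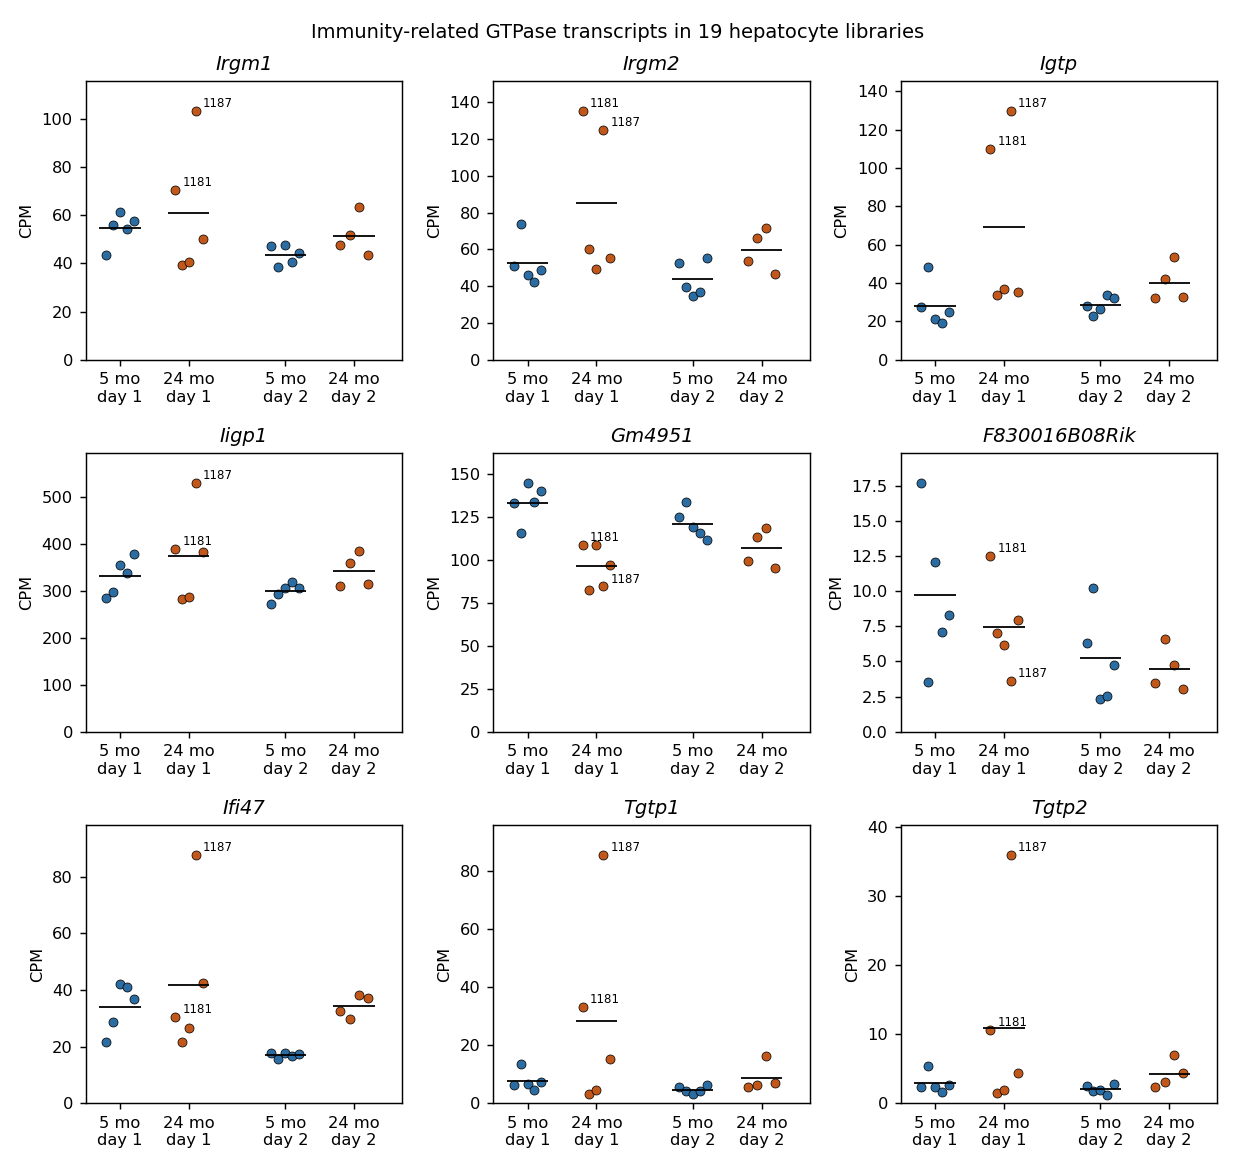
CPM of each member (vertical axis, from 0) in each of the 19 libraries, by age (5 or 24 months) and cull day; points are libraries, horizontal lines group means, and old mice 1181 and 1187 are numbered. Igtp, Irgm2, Tgtp1 and Tgtp2 are highest in 1181 and 1187, Ifi47 separates the ages on the second day, and Gm4951 is lower in old mice.

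The design asked which transcripts differ between the ages. Of the 9 members, 5 rose with age (Igtp, Irgm2, Ifi47, Tgtp1 and Tgtp2), 1 fell (Gm4951) and 3 did not pass (Irgm1, Iigp1 and F830016B08Rik) in edgeR's quasi-likelihood test with Benjamini-Hochberg adjustment over all genes. All 9 had passed the filter on low counts. Among all 12269 genes tested, 30.9% passed, 16.3% as higher and 14.5% as lower in old mice. The median log2 fold change was 0.58 over the members and -0.003 over all genes tested. No member separated the ages completely (0 of 9, against 1.70% of all genes).

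Among the regulatory members, Igtp was at 19.04, 27.0 and 48.4 CPM (lowest, median and highest) in young mice and at 32.4, 37.0 and 129.8 CPM in old mice. All 9 old mice lay above the young median, but the groups overlapped, and the old values were led by mice 1187 (129.8) and 1181 (110.0), with 53.7 CPM in the next. The log2 fold change of Igtp was 0.92 (SE 0.271, edgeR adjusted p = 0.0165). Irgm2 was at 34.9, 47.5 and 73.6 CPM in young and at 46.4, 60.1 and 135.3 CPM in old mice, which gave 0.58 as the log2 fold change (SE 0.186; adjusted p = 0.0252 in edgeR). Mice 1181 (135.3) and 1187 (124.9) again led, and 8 of 9 old mice were above the young median. In limma-voom Irgm2 did not pass (0.43, limma adjusted p = 0.0547).

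Irgm1, whose loss in mice weakens defence against many intracellular pathogens, did not pass. It was at 38.4, 47.2 and 61.4 CPM in young mice and at 39.3, 50.01 and 103 CPM in old mice. Its log2 fold change was 0.19 (SE 0.146, edgeR adjusted p = 0.327), with an interval of 2 SE either side from -0.10 to 0.48. Mouse 1187 was the highest, and 3 old mice were above all young mice.

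On chromosome 18, Gm4951 was the member that fell. It was at 112, 129 and 145 CPM in young mice and at 82.6, 99.7 and 119 CPM in old mice, and 7 of the 9 old mice were below all 10 young mice. The log2 fold change of Gm4951 was -0.33 (SE 0.0759, edgeR adjusted p = 0.0039). The fall was called in 32 of 33 other fits, and missed the threshold on the second cull day alone (-0.18, edgeR adjusted p = 0.206). Old mice 1183 and 1187, which had the lowest (2.51) and the highest (5.66) other-cell score among old mice, defined with the marker comparison, were the lowest in Gm4951, at 82.6 and 84.8 CPM.

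Iigp1, the best characterised effector of the family, was at 271, 307 and 380 CPM in young mice and at 284, 361 and 531 CPM in old mice. Its log2 fold change was 0.19 (SE 0.101, edgeR adjusted p = 0.164), with an interval of 2 SE either side from -0.01 to 0.39. F830016B08Rik was at 2.31, 6.72 and 17.8 CPM in young and at 3.01, 6.17 and 12.5 CPM in old mice, which gave -0.31 as the log2 fold change (SE 0.306; adjusted p = 0.461 in edgeR). It varied most among young mice of all members, with an SD of 64.5% of its mean, against 8.99% for Gm4951. Its spread between mice was thus far wider than the difference between ages. The family gene Gm4841, which lies between Gm4951 and F830016B08Rik and was looked up after the values were seen, had 3.5 to 39 counts per library and did not pass (-0.43, edgeR adjusted p = 0.394).

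Among the remaining effectors, Tgtp1 was at 3.19, 6.01 and 13.7 CPM in young mice and at 3.25, 6.99 and 85.7 CPM in old mice. Old mouse 1187 led, followed by 1181 (33.3) and 1240 (16.4), while 3 old mice were below the young median. The log2 fold change of Tgtp1 was 1.44 (SE 0.476, edgeR adjusted p = 0.0282). Tgtp2 was at 1.25 to 5.44 CPM in young and 1.46 to 36.1 CPM in old mice, which gave 1.52 as the log2 fold change (SE 0.479; adjusted p = 0.0224 in edgeR). With the counts of the pair added together before the fit, the log2 fold change was 1.47 (edgeR adjusted p = 0.025). In limma-voom with weighted samples neither passed, at 0.64 for Tgtp1 and 0.76 for Tgtp2 (limma adjusted p = 0.241 and 0.135).

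Ifi47 (Irgd) was at 15.8, 19.6 and 42.2 CPM in young mice and at 21.7, 32.6 and 87.8 CPM in old mice, which gave 0.63 as the log2 fold change (SE 0.215; adjusted p = 0.0323 in edgeR). All 9 old mice lay above the young median. With the cull day left out of the model Ifi47 did not pass (0.59, edgeR adjusted p = 0.0884). The cull days looked unlike each other. On the second day the 5 young mice were at 15.8 to 17.7 CPM and the 4 old mice at 29.8 to 38.1 CPM, without overlap, and that day alone gave a log2 fold change of 1.02 (edgeR adjusted p = 0.000203). On the first day young mice were at 21.5 to 42.2 CPM and old mice at 21.7 to 87.8 CPM, a log2 fold change of 0.29 (edgeR adjusted p = 0.628). Young mice 1184, 1186 and 1188, which stood apart, held 36.9 to 42.2 CPM of Ifi47, and without them the log2 fold change was 0.90 (edgeR adjusted p = 0.0117).

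The same 3 young mice were among the lowest in Igtp, at 19.04 to 24.9 CPM, so that the 2 members ran opposite ways in them. Without these mice Igtp (0.63), Irgm2 (0.44), Tgtp1 (1.14) and Tgtp2 (1.22) did not pass (edgeR adjusted p = 0.122, 0.14, 0.149 and 0.123). The difference between cull days was tested by an interaction of age and cull day. No member passed, with edgeR adjusted p from 0.775 for Gm4951 to 0.997 for Iigp1, and 0.826 for Ifi47 (unadjusted 0.0969). None of the 12269 genes passed in edgeR (0), with 799 at an unadjusted p under 0.05.

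The calls of the rises were tested by leaving out mice. Without old mouse 1187, Igtp still passed (0.71, edgeR adjusted p = 0.0317), while Irgm2 (0.48), Ifi47 (0.42), Tgtp1 (0.87) and Tgtp2 (0.85) did not (edgeR adjusted p = 0.0561, 0.101, 0.0827 and 0.0683). Leaving out single mice other than 1187 lost Ifi47 without 1180, 1237, 1240, 1242 or 1243 (0.58 to 0.61) and Tgtp1 without 1180, 1188 or 1240 (1.30 to 1.40), with edgeR adjusted p from 0.0501 to 0.0648, and no other rise. Without 1187 and 1181 together, no member was called higher, Igtp being at 0.42 (edgeR adjusted p = 0.0763), and Gm4951 was still called lower (-0.31, edgeR adjusted p = 0.0121). On the first cull day alone, a fit of 5 against 5 mice, none of the 5 rises passed in edgeR. The log2 fold changes there were 1.28 for Igtp, 0.69 for Irgm2, 1.86 for Tgtp1 and 1.90 for Tgtp2, larger than over both days, and 0.29 for Ifi47 (adjusted p from 0.107 to 0.628). On the second day alone Igtp (0.49), Ifi47 (1.02) and Tgtp2 (1.04) passed.

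**Figure D2:**
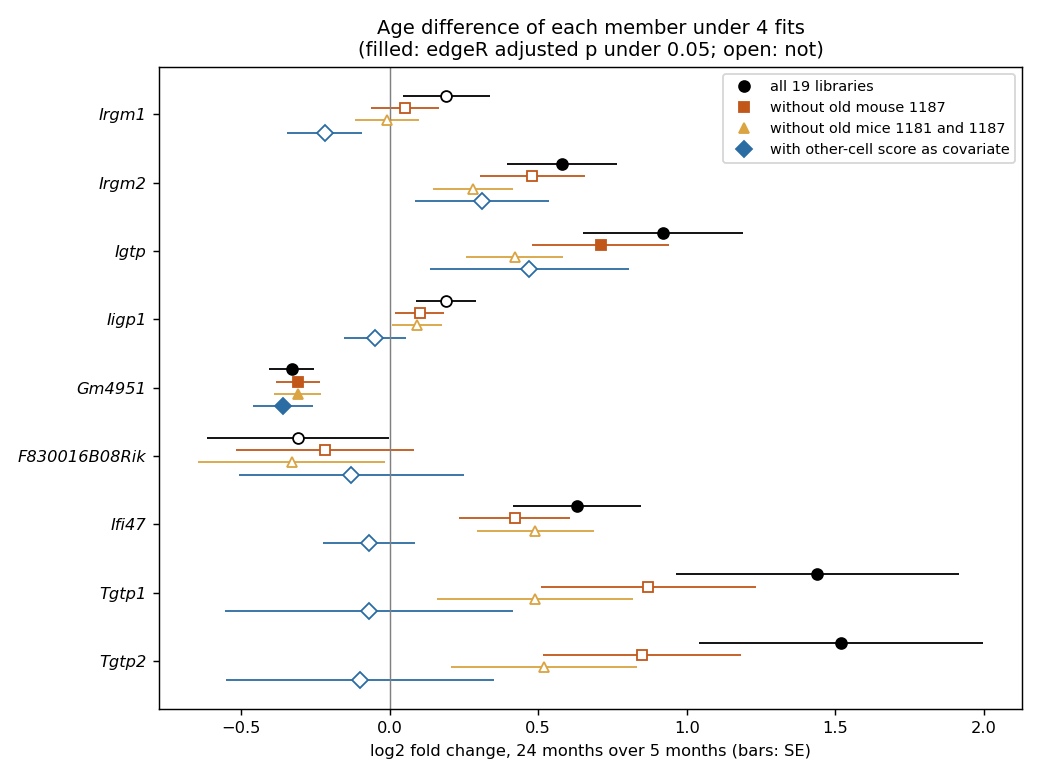
Log2 fold change of each member, 24 over 5 months (horizontal axis; bars are SE), in all 19 libraries, without old mouse 1187, without old mice 1181 and 1187, and in a fit that also held the other-cell score; filled symbols passed an edgeR adjusted p of 0.05. Gm4951 is filled in all 4 fits at -0.31 to -0.36, and the 5 rises are smaller and mostly open in the other 3 fits.

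The members were compared with markers of other liver cells through an other-cell score, the mean log2 CPM of 46 tested markers. These were 15 macrophage, 16 endothelial, 12 stellate and 2 B cell genes and 1 T and NK cell gene. Lymphocytes thus had little weight in the score. The score stood at 2.99 ± 0.485 at 5 months (SD, n = 10), against 3.99 ± 0.821 at 24 months (SD, n = 9). When the fit also held this score, none of the members was called higher in edgeR and Gm4951 was still called lower (-0.36, edgeR adjusted p = 0.0244), beside 12.5% of all genes called. The log2 fold changes were then 0.47 for Igtp, 0.31 for Irgm2, -0.07 for Ifi47, -0.07 for Tgtp1 and -0.10 for Tgtp2, with edgeR adjusted p from 0.367 to 0.943. The score and age moved together, and the part of the other cells in these differences was not tested. In these bulk samples, fewer cells of a type and less RNA per cell cannot be told apart.

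Beyond age and cull day, the members followed the score unequally. After removal of the age by cull day means, Pearson's r with the score over the 19 libraries was 0.886 for Ifi47 (Spearman's rho 0.709), 0.757 for Irgm1 (0.537), 0.696 for Tgtp2 (0.447), 0.674 for Iigp1 (0.453) and 0.666 for Tgtp1 (0.440). It was 0.394 for Igtp (rho 0.112), 0.391 for Irgm2 (0.288), 0.045 for Gm4951 (0.174) and -0.144 for F830016B08Rik (0.061). Without mice 1181 and 1187, r was 0.810 for Ifi47, 0.582 for Irgm1, 0.465 for Tgtp2, 0.458 for Tgtp1, 0.438 for Iigp1, 0.365 for Gm4951, 0.161 for Irgm2, 0.080 for F830016B08Rik and 0.053 for Igtp. These are descriptions over libraries, and several libraries share each cull day.

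**Figure D3:**
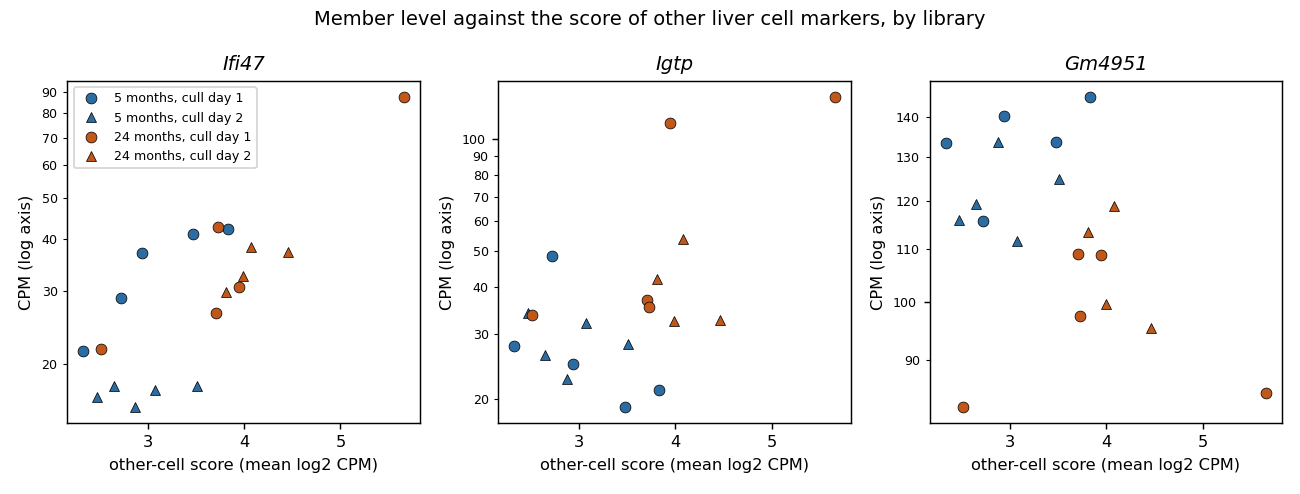
CPM of Ifi47, Igtp and Gm4951 (vertical axes, log scale) against the other-cell score (horizontal axis, mean log2 CPM of 46 markers) in each library; colours are ages and symbols cull days. Old mouse 1187 has the highest score (5.66) and the highest Ifi47 and Igtp, old mouse 1181 is second in Igtp at a score of 3.94, and 7 of 9 old mice lie below all young mice in Gm4951.

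Members varied together from mouse to mouse to unequal degrees. With age by cull day means removed, r over the 19 libraries was 0.970 between Tgtp1 and Tgtp2, which share most of their sequence, and 0.905 between the neighbours Igtp and Irgm2. It was 0.872 between Irgm1 and Iigp1 and 0.848 between Iigp1 and Ifi47, but 0.291 between Irgm2 and Ifi47. Irgm1 was as close to Tgtp1 (0.875) and Tgtp2 (0.878) as to Iigp1. Gm4951 and F830016B08Rik had an r of 0.627 with each other and of -0.351 to 0.081 with the other members. Without mice 1181 and 1187 the values were 0.841 for Igtp and Irgm2, 0.786 for Iigp1 and Ifi47 and 0.539 for Gm4951 and F830016B08Rik, while Gm4951 was at 0.350 with Iigp1, 0.250 with Irgm1 and 0.247 with Ifi47. By Spearman's rho Irgm1 was less close to Ifi47 (0.519) than to Igtp (0.642), Irgm2 (0.672), Tgtp1 (0.705) or Tgtp2 (0.732).

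**Figure D4:**
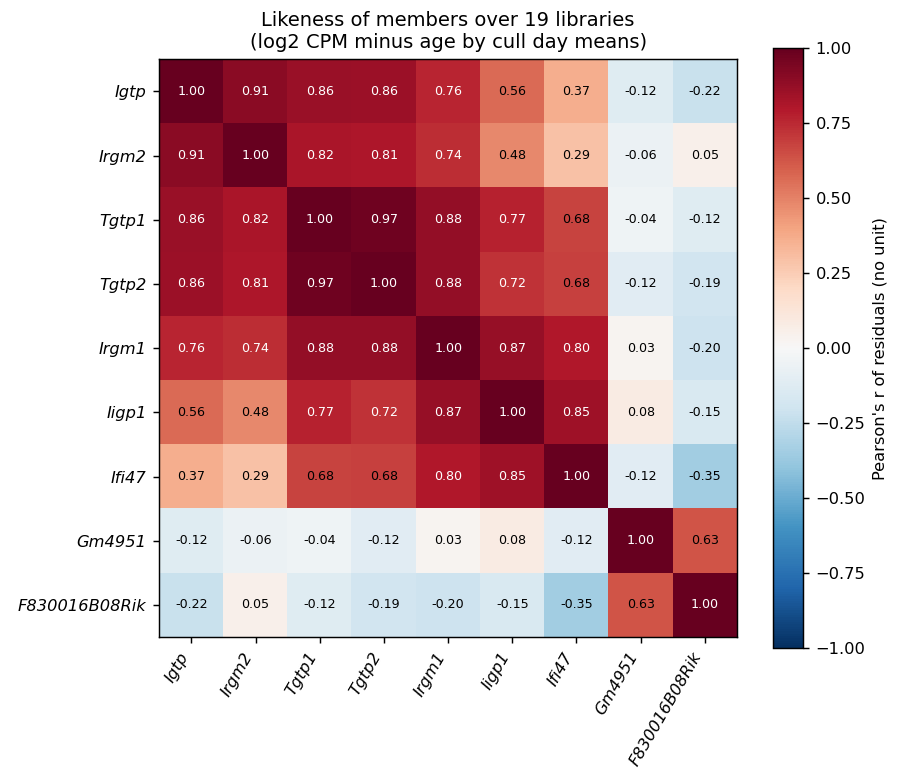
Pearson's r between members over 19 libraries, after age by cull day means of log2 CPM were removed; colour and printed value both give r. Igtp, Irgm2, Tgtp1 and Tgtp2 have r of 0.81 to 0.97 with each other, Irgm1, Iigp1 and Ifi47 of 0.80 to 0.87, and Irgm1 of 0.88 with Tgtp1 and Tgtp2; Gm4951 and F830016B08Rik have r of at most 0.08 with the others.

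Among the 12269 genes tested, the 5 with the highest mean r to the 9 members included Gbp4 (0.615), Gbp7 (0.614), Gbp5 (0.614) and Gbp3 (0.612). Single members were most like Gbp6 for Igtp (r = 0.951), Gbp3 for Irgm1 (0.936), Gins2 for Iigp1 (0.927), Ccl6 for Ifi47 (0.963), Csnk1a1 for Gm4951 (0.917) and Arfgef1 for F830016B08Rik (0.953). For Irgm2 the nearest was Igtp, and Tgtp1 and Tgtp2 were nearest to each other. These are the highest of many values and carry no test.

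Among the other genes of the family in the table, Gm12250 (Irgb10), an effector that attacks bacterial membranes, had a mean of 1.30 ± 0.431 CPM at 5 months (SD, n = 10), against 3.62 ± 4.87 CPM at 24 months (SD, n = 9). Its log2 fold change was 1.32 (SE 0.453, edgeR adjusted p = 0.0338), with 16.2 CPM in mouse 1187 and at most 4.84 CPM in the other old mice. The call was lost without 1187 and in 6 other fits that left out a single mouse. 9930111J21Rik1 (0.82, edgeR adjusted p = 0.211) and Irgq (-0.12, edgeR adjusted p = 0.371) did not pass. 9930111J21Rik2, Gm5431 and Gm12185 were too low for the filter, with 0 to 103.5 counts per library, and Irgc1, a testis gene, had at most 0.5 counts.

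Upstream in the pathway, transcripts of the interferons themselves were at or near 0. Of 21 ligand genes, 17 had no count in any library. Ifng, the gene for interferon gamma, had 0 counts in all young libraries and at most 2 counts in any library. At this depth 3 counts are needed to stand above the floor, so no difference in ligand transcripts was detectable.

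Most of the receptors are expressed by hepatocytes and immune cells alike. Among the 6 receptor genes listed, Ifnlr1 had at most 3 counts in a library and was not tested. Of 5 tested, 3 rose, against 16.3% of all genes, Ifngr1 (log2 fold change 0.67), Il10rb (1.11) and Ifnar1 (0.18), and none fell, with a list median of 0.20. A list of 12 signalling genes held JAK, STAT and IRF genes and the transactivators of MHC genes Nlrc5 and Ciita. Of these, 5 rose and none fell, with a median of 0.40, beside the same 16.3%. The risers were Irf7 (1.20), Nlrc5 (0.64), Ciita (2.07), Irf9 (0.34) and Stat2 (0.29, edgeR adjusted p = 0.0499). Mouse 1187 was far above the other old mice for Ciita (10.56 CPM, next 1.95), Irf7 (181.3 CPM, next 60.6) and the receptor Il10rb (26.1 CPM, next 10.14). On the first cull day alone 0 genes of the receptor and signalling lists were called higher, when 450 of all genes passed in either direction. On the second day alone, which does not hold mouse 1187, 2 receptor and 5 signalling genes were called higher, when 2389 genes passed. Irf1, an interferon-induced transcription factor, did not pass (0.49, edgeR adjusted p = 0.0633). Of 5 feedback inhibitors tested, Usp18 (0.99) and Pias1 (0.28) rose, beside the same 16.3% of all genes, and 1 of them without mouse 1187, 1236 or 1238. In the fit that held the other-cell score, no gene of the receptor, signalling and inhibitor lists was called higher (0) and Jak1 was called lower (-0.31, edgeR adjusted p = 0.0332). The medians of the 3 lists were then 0.17, -0.01 and 0.02, and the part of the other cells was not tested.

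The guanylate-binding proteins, larger GTPases that act with this family at vacuoles, were also measured. Of 11 genes 9 rose and none fell, with a median log2 fold change of 1.13, against 16.3% of all genes called higher. The smallest p were those of Gbp7 (0.90), Gbp3 (1.53), Gbp5 (1.70), Gbp6 (1.06) and Gbp8. Without mouse 1187, 3 of the 11 passed, when 3014 of 12277 genes did in either direction, and in the fit that held the other-cell score 0 did, beside 12.5% of all genes. On the first cull day alone 0 of the 11 were called higher, when 450 genes passed in either direction. On the second day alone 5 were, when 2389 genes passed. In limma-voom 4 were called higher.

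Both GTPase families are brought to vacuoles by the machinery that conjugates ATG8 proteins in autophagy. Of 14 such genes and adaptors, 5 fell and 1 rose, with a median of -0.16, beside 14.5% and 16.3% of all genes. Gabarapl2, an ATG8 protein, fell by 0.30 on the log2 scale, as did Atg7 (-0.35), the enzyme that activates ATG8 proteins, and Atg5 (-0.28), Atg12 (-0.20) and Map1lc3b (-0.24). Trim21, a ubiquitin ligase, rose (0.32), a call lost in 8 of 19 fits that left out a single mouse, without 1181, 1182, 1186, 1187, 1237, 1239, 1240 or 1243. In the fit that held the other-cell score, Gabarapl2 (-0.25) and Atg7 (-0.28) were still called lower, while Atg5 (-0.22), Atg12 (-0.10), Map1lc3b (-0.27) and Trim21 (0.12) did not pass (edgeR adjusted p = 0.124, 0.335, 0.0667 and 0.548). The 2 of 14 called there stand beside 12.5% of all genes.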

How the data were processed

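The authors deposited 1 table of estimated counts per gene for 19 libraries, made with HOMER's analyzeRepeats.pl (exons, mm10, transcripts condensed to genes, raw), per the file headers. STAR, HOMER and the builds GRCm38 and mm10 are named in the submitters' processing notes. The handling of reads with several matches and the strand setting are not given in the sources used here. Deposited lengths per gene gave CPM per kb. Counts came in steps of 0.5 (29.2% not whole) and were rounded for the tests, which had been planned for counts. Libraries held 17381439 to 20287628.5 counts in genes.

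Age was tested with edgeR 4.0.16 (R 4.3.3): quasi-likelihood test, TMM scaling, cull day as a covariate, filterByExpr by age, Benjamini-Hochberg adjustment over all genes, threshold 0.05. SE was the absolute log2 fold change over the square root of F. The model was tested on simulated data. P-values set the difference between the ages against the spread between these libraries. Log2 CPM used a prior count of 2. Alternatives were other scaling, filters, DESeq2 1.42.0, limma 3.58.1 (voom, weighting samples), leaving the cull day out of the model, each day alone, the other-cell score, the Tgtp pair added, and leaving out mice; 3 were chosen after seeing the data (mice 1181 and 1187 left out, young mice 1184, 1186 and 1188 left out, a macrophage covariate). Genes named are all members, their family, up to 5 called genes per pathway list with the smallest p, the leading gene per marker list, Ifng, Irf1 and the nearest patterns. One gene of these is not reported here. The members and lists were chosen with earlier results of these data known.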

Additional observations from a re-analysis of the deposited data

Results flagged for a closer look

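In 9 of 18 groups (9 members, each in young and in old mice) 1 library lay further from the rest than Dixon's critical value allows; chance flags about 1 group in 20, and members that vary together are not independent. Old mouse 1187 was far above the other old mice for Irgm1 (103 CPM, next 70.4), Iigp1 (531 CPM, next 391), Ifi47 (87.8 CPM, next 42.6), Tgtp1 (85.7 CPM, next 33.3) and Tgtp2 (36.1 CPM, next 10.7). Its other-cell score, 5.66, was also the highest of all libraries.

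Young mouse 1182 was far above the other young mice for Igtp (48.4 CPM, next 34.0), Irgm2 (73.6 CPM, next 55.4), Tgtp1 (13.7 CPM, next 7.46) and Tgtp2 (5.44 CPM, next 2.75). Its other-cell score was 2.72, below the young mean of 2.99, and its Ifi47 level, 28.9 CPM, was within the young range. Without this mouse all 5 rises were still called in edgeR, with adjusted p from 0.0136 for Igtp to 0.0468 for Ifi47.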

How the results depend on the processing

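Of all genes, 3785 passed with age. The count was 450 on the first cull day alone, 2389 on the second alone, 1539 with the other-cell score in the model, 2472 with a macrophage score, 2509 without old mice 1181 and 1187, and 3014 to 3949 when single mice were left out. Fits that leave out mice or a day hold fewer mice. Of the 5 members called higher, 2 were in limma-voom, 0 on the first day, 3 on the second, 0 with either score, 0 without mice 1181 and 1187, 1 without young mice 1184, 1186 and 1188, and 1 to 5 when single mice were left out, the 1 being without 1187. The 1 member called lower, Gm4951, was called in each fit except that of the second day (0). Directions reversed with the other-cell score for Irgm1 (-0.22), Iigp1 (-0.05), Ifi47 (-0.07), Tgtp1 (-0.07) and Tgtp2 (-0.10), and for Irgm1 with the macrophage score (-0.09) and without mice 1181 and 1187 (-0.01); the cause was not tested. The interaction of age and cull day passed for 0 to 1 genes when single mice were left out. The leaving-out of those groups of mice and the macrophage score were chosen after seeing the data. No paired analysis was possible because library numbers are not shared between the ages. Counts of 3 or fewer per library limit the interferon ligands.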
